A study of Mus musculus with 4 samples.

Results

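B cells of orthotopic CT26 tumors were studied as the cells that the authors' annotation places in the cluster named B_cell, 318 of 17674 cells in all. Of these, 181 came from Cyp51-KO tumors and 137 from sg-Ctrl tumors. CT26 is a mouse colorectal cancer line, and the tumors were grown in the colon of male BALB/c mice that were 8 to 10 weeks old at injection, then taken at day 26. In the Cyp51-KO group (named CYP51KO in the table, 9 tumors) the CT26 cells carried a lentiviral Cas9 and TagBFP vector with a guide against *Cyp51*, an enzyme of cholesterol synthesis, and in the sg-Ctrl group (named WT, 12 tumors) the same vector with a control guide. The CT26 cells had been selected by sorting for TagBFP, and no line of 1 clone is described. The B cells belong to the host, and in both groups the edited cells were the CT26 cells. Bulk CD45+ leukocytes (50%), CD3+ T cells (40%) and tumor cells (10%) had been sorted and then mixed before 5' droplet single-cell RNA sequencing. B cells, plasma cells and natural killer (NK) cells lack CD3, so they belong to the bulk CD45+ part of this mix.

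B cells recognise antigen through a membrane immunoglobulin, which signals through the paired chains encoded by *Cd79a* and *Cd79b*. After activation they can become plasma cells, which are filled with secretory machinery and immunoglobulin transcripts and release antibody. In tumors, B cells present antigen to T cells, secrete cytokines and can gather in lymphoid aggregates. *Cd79a* (chromosome 7, 24897381 to 24902197 on GRCm38, plus strand) and *Ms4a1*, which encodes CD20 (chromosome 19, 11249675 to 11266241, minus strand), are defining genes of the lineage. *Cd79a*, with *Ebf1*, a transcription factor of the B lineage, and *Ighm*, the immunoglobulin mu chain, is among the leading genes that the authors list for the cluster over both groups, whereas *Ms4a1* is not. That list was chosen from these same cells. Transcript levels per cell were not analysed here, so the label was not checked against marker levels in each group, and naive, memory and germinal centre B cells were not told apart.

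The table gives, for each cell, its cluster, its unique molecular identifiers (UMIs, each standing for 1 captured transcript molecule), its number of genes detected and the mitochondrial percentage of its UMIs. Although 2 samples per group are listed, a cell name carries the prefix of its group and not its sample, so each group was 1 set of cells, and the labels do not say whether the samples of a group are separate libraries or runs of the same library. No test of Cyp51-KO against the sg-Ctrl group was therefore possible. The values below have exact 95% intervals over cells, binomial (Clopper-Pearson) for shares and from the ordered values for medians and percentiles. They cover counting error only and not the spread between tumors or libraries. For a log2 ratio or a difference of medians the interval sets the lower bound of one group against the upper bound of the other. Such an interval is wider than a 95% interval of the ratio or difference itself. No cell barcode occurred more than once within a group (0 in each), and 98 barcodes occurred in both groups. Among these shared barcodes 6 belonged to a B cell in at least 1 group, and 1 of them was a B cell in both.

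B cells were a small part of the lymphocytes at a similar level in both groups. They were 3.04% of lymphocytes in the Cyp51-KO group (181 of 5957 cells, interval 2.62 to 3.51%) and 2.64% in the sg-Ctrl group (137 of 5193 cells, 2.22 to 3.11%). The log2 ratio of these shares, Cyp51-KO over sg-Ctrl, was 0.20 with an interval of -0.25 to 0.66. These bounds run from a share in the Cyp51-KO group lower by 0.25 to one higher by 0.66 on the log2 scale. Taken with T cells alone, B cells were 3.89% of T and B cells in the Cyp51-KO group (3.35 to 4.49%) and 3.27% in the sg-Ctrl group (2.76 to 3.86%). These denominators hold the sorted CD3+ T cells and thus depend on how the mix was made.

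Against the other lymphocytes that lack CD3, NK and plasma cells, B cells were nearly level. They were 12.2% of NK, B and plasma cells in the Cyp51-KO group (181 of 1485 cells, 10.6 to 14.0%) and 12.0% in the sg-Ctrl group (137 of 1145 cells, 10.1 to 14.0%), a log2 ratio of 0.027 (-0.40 to 0.46). With myeloid cells included, which also come from the bulk sort, they were 5.28% in the Cyp51-KO group (4.55 to 6.08%) and 5.84% in the sg-Ctrl group (4.93 to 6.87%). The direction of the difference was therefore not the same for all denominators. The log2 ratio was -0.15 among immune cells without T cell clusters and -0.14 over all cells, and 0.096 over all immune cells. In each case the intervals of both groups overlapped. All immune cells and all cells hold the sorted CD3+ T cells, and all cells also hold the sorted tumor cells. The malignant cluster was 2428 of 10484 cells in Cyp51-KO and 729 of 7190 in the sg-Ctrl group. Shares over these 2 sets thus also depend on how the mix was made.

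**Figure D1:**
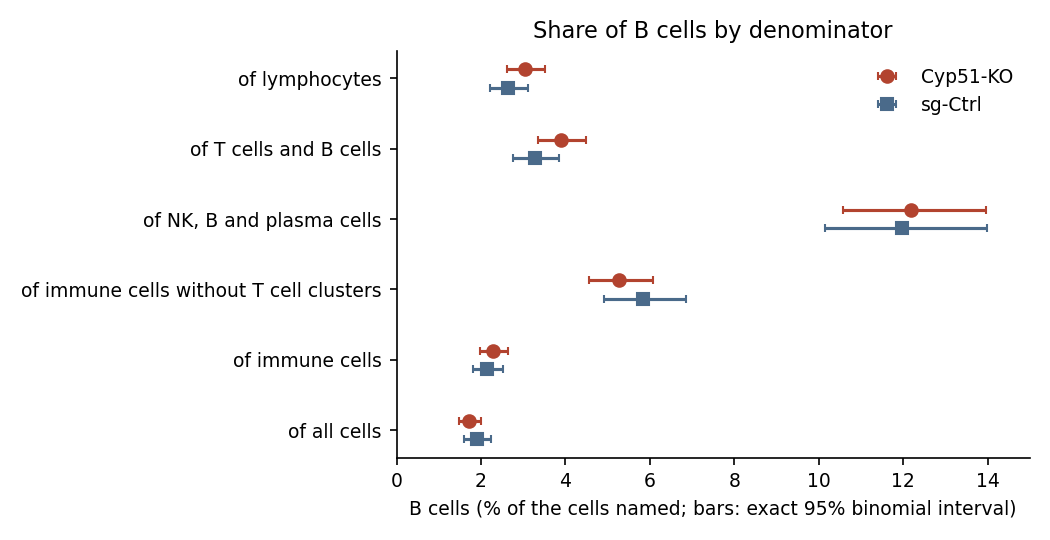
B cells as a percentage of 6 sets of cells (one per line), in Cyp51-KO (circles) and sg-Ctrl tumors (squares), with exact 95% binomial intervals as bars. The intervals of both groups overlap for every set, and the Cyp51-KO point lies to the left only over immune cells without T cell clusters (5.28% against 5.84%) and over all cells (1.73% against 1.91%).

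NK cells, cytotoxic lymphocytes without an antigen receptor, had been divided into 3 clusters. The number of B cells per NK cell was 0.144 in the Cyp51-KO group (0.123 to 0.169) and 0.138 in the sg-Ctrl group (0.115 to 0.165). Cluster by cluster the ratio pointed in different directions. Per cell of the first functional NK cluster there were 0.239 B cells in Cyp51-KO and 0.209 in the sg-Ctrl group, and per activated NK cell 0.578 and 0.604. Per cell of the second functional NK cluster, the smallest, there were 0.984 B cells in the Cyp51-KO group (0.797 to 1.21) and 1.27 in the sg-Ctrl group (0.979 to 1.65). All of these intervals overlapped between the groups.

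Plasma cells were the reference cluster against which B cells differed most. There were 3.62 B cells per plasma cell in the Cyp51-KO group (181 against 50 cells, 2.63 to 5.06) and 8.56 in the sg-Ctrl group (137 against 16 cells, 5.09 to 15.4), a log2 ratio of -1.24 (-2.55 to -0.0091). The intervals were apart by a narrow margin and met when cells were filtered more strictly, when the cells with the most UMIs were left out, or when the UMI minimum was raised in sg-Ctrl. The ratio rests on 16 plasma cells in the sg-Ctrl group. Of the B lineage as a whole, B cells made up 78.4% in the Cyp51-KO group (72.5 to 83.5%) and 89.5% in the sg-Ctrl group (83.6 to 93.9%). Plasma and B cells counted as 1 class were 3.88% of lymphocytes in the Cyp51-KO group (3.40 to 4.40%) and 2.95% in the sg-Ctrl group (2.503 to 3.44%). Of NK, B and plasma cells, B cells were 12.2% and 12.0%. Plasma cells were 3.37% of the same set in the Cyp51-KO group (2.51 to 4.42%) and 1.40% in the sg-Ctrl group (0.801 to 2.26%). Whether B cells or plasma cells changed in number in the tumors was not tested.

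B cells of the Cyp51-KO group had fewer UMIs per cell. The median B cell had 2062 UMIs in the Cyp51-KO group (1803 to 2260) and 3924 in the sg-Ctrl group (3772 to 4381), a log2 ratio of -0.93 (-1.28 to -0.74). The groups overlapped little around their centres. Of the Cyp51-KO B cells, 146 of 181 (80.7%) had fewer UMIs than the sg-Ctrl median, and 8 of 137 sg-Ctrl B cells (5.84%) had fewer than the Cyp51-KO median. The gap was nearly the same along the whole distribution. At the 10th percentile Cyp51-KO B cells had 1109 UMIs and sg-Ctrl B cells 2315.8 (log2 ratio -1.06), at the 25th 1546 and 3108 (-1.01), at the 75th 3261 and 6699 (-1.04) and at the 90th 5088 and 10860 (-1.09). At each of these percentiles the intervals of the groups were apart. Correspondingly, the spread within a group was alike, with a 90th percentile 4.59 times the 10th in Cyp51-KO and 4.69 times in sg-Ctrl B cells. The range was 566 to 19255 UMIs in Cyp51-KO and 767 to 60407 in sg-Ctrl B cells, where a single cell lay far above the next at 20787.

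**Figure D2:**
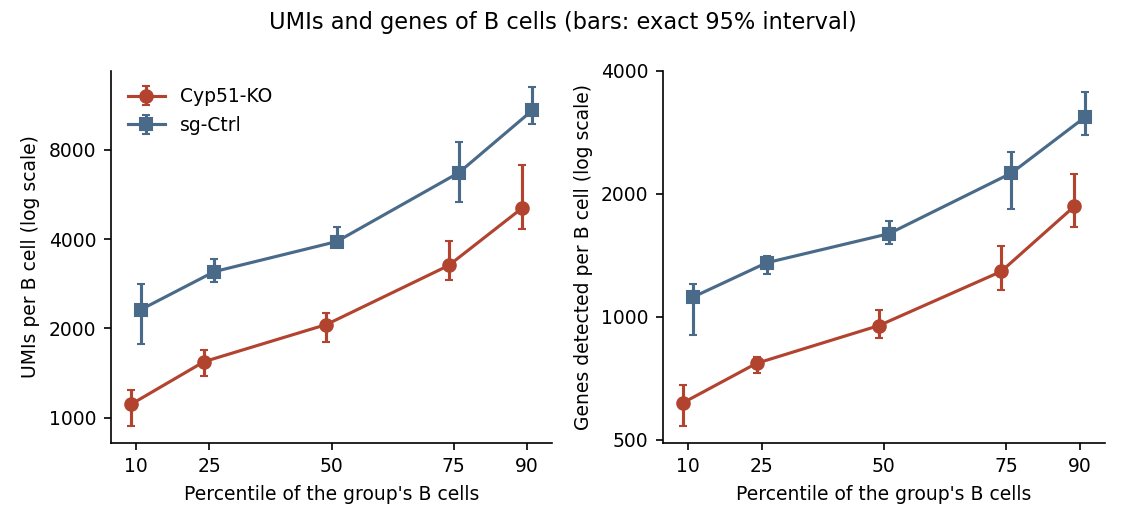
UMIs (left) and genes detected (right) per B cell, both on log scales, at the 10th, 25th, 50th, 75th and 90th percentiles of the B cells of each group, with exact 95% intervals as bars. The Cyp51-KO curve runs below and nearly parallel to that of sg-Ctrl, with medians of 2062 and 3924 UMIs and of 951 and 1596 genes.

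The lower number of UMIs was shared by the reference clusters. The log2 ratio of median UMIs was -0.88 in the first functional NK cluster (3437 against 6337 UMIs), -0.65 in activated NK cells (5015 against 7865), -0.43 in the second functional NK cluster (14908 against 20085.5) and -0.85 in plasma cells (19262.5 against 34629). The value of B cells, -0.93, was the fourth lowest of the 13 lymphocyte clusters, and its interval overlapped those of plasma cells, the first functional NK cluster and activated NK cells, and lay apart from that of the second functional NK cluster (-0.64 to -0.085). Relative to NK and plasma cells as 1 set, the median B cell was lower by 0.25 more on the log2 scale in the Cyp51-KO group (-1.21) than in the sg-Ctrl group (-0.96). Relative to the first functional NK cluster alone this additional gap was -0.046, and relative to the second -0.50. It was -0.28 relative to activated NK cells and -0.082 relative to plasma cells. The pooled set was not made up alike in both groups. The first functional NK cluster was 51.0% of NK, B and plasma cells in Cyp51-KO and 57.4% in the sg-Ctrl group, with intervals apart. UMIs per cell hold both the RNA content of the cell and the depth and capture of its library, and these cannot be told apart here.

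**Figure D3:**
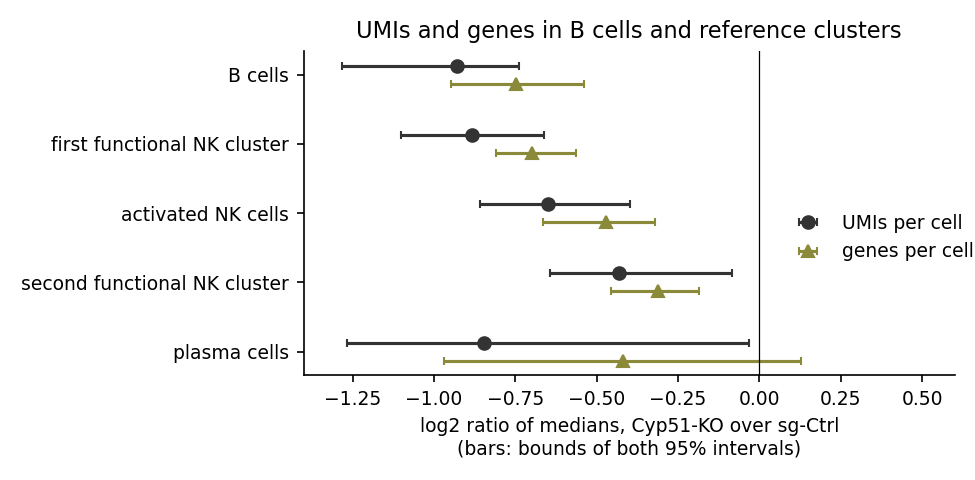
Log2 ratio of the median UMIs (circles) and median genes (triangles) per cell, Cyp51-KO over sg-Ctrl, in B cells, the 3 NK clusters and plasma cells, with bars from the bounds of both 95% intervals. All points lie below 0, from -0.93 for UMIs in B cells to -0.31 for genes in the second functional NK cluster, and the bars of B cells are apart only from those of that NK cluster.

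Within its own group, a B cell was a cell of few UMIs. B cells had the second lowest median of the 13 lymphocyte clusters in the Cyp51-KO group, after Th1-like cells (1860), and the lowest in the sg-Ctrl group, next to Th1-like cells (4214.5), with overlapping intervals between these clusters in both groups. Against all lymphocytes of the same group, the median B cell lay 0.92 lower on the log2 scale in the Cyp51-KO group (-0.92) and 0.85 lower in the sg-Ctrl group (-0.85). Of the B cells, 145 (80.1%) in Cyp51-KO and 108 (78.8%) in the sg-Ctrl group lay under the lymphocyte median of their group. When the lymphocytes of each group were ranked by UMIs and split into 5 equal parts, the lowest part held 89 B cells in the Cyp51-KO group, 7.47% of its lymphocytes (6.04 to 9.11%), and 78 in the sg-Ctrl group, 7.51% (5.98 to 9.28%). The highest part held 6 B cells (0.504%) and 8 B cells (0.771%). Plasma cells stood at the other end, with the highest median of the 13 clusters in both groups. The median B cell thus had a log2 ratio of UMIs to the median plasma cell of -3.22 in Cyp51-KO and -3.14 in the sg-Ctrl group.

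At the same absolute UMIs the shares of B cells did not line up. In Cyp51-KO tumors B cells were most frequent among lymphocytes of 1000 to 2000 UMIs, at 8.27% (74 of 895 cells, 6.55 to 10.3%), and in the sg-Ctrl group among those of 2000 to 4000 UMIs, at 8.57% (63 of 735 cells, 6.65 to 10.8%). The highest shares of both groups were therefore alike and 1 doubling of UMIs apart. From 2000 to 4000 UMIs the Cyp51-KO share was 3.35% (63 of 1883 cells, 2.58 to 4.26%), with intervals apart from sg-Ctrl. From 1000 to 2000 UMIs the sg-Ctrl share was 4.69% on only 6 B cells (1.74 to 9.92%), and the intervals overlapped. From 4000 to 8000 UMIs the shares were 1.56% and 1.91%, and from 8000 to 16000 UMIs 0.725% and 1.46%, with overlapping intervals. B cells near the minimum of 500 UMIs in the table were few, with 12 under 1000 UMIs in Cyp51-KO (6.63% of B cells) and 2 in the sg-Ctrl group (1.46%). Of all lymphocytes, 258 of 5957 in Cyp51-KO and 42 of 5193 in the sg-Ctrl group lay under 1000 UMIs. B cells were 4.65% and 4.76% of these.

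**Figure D4:**
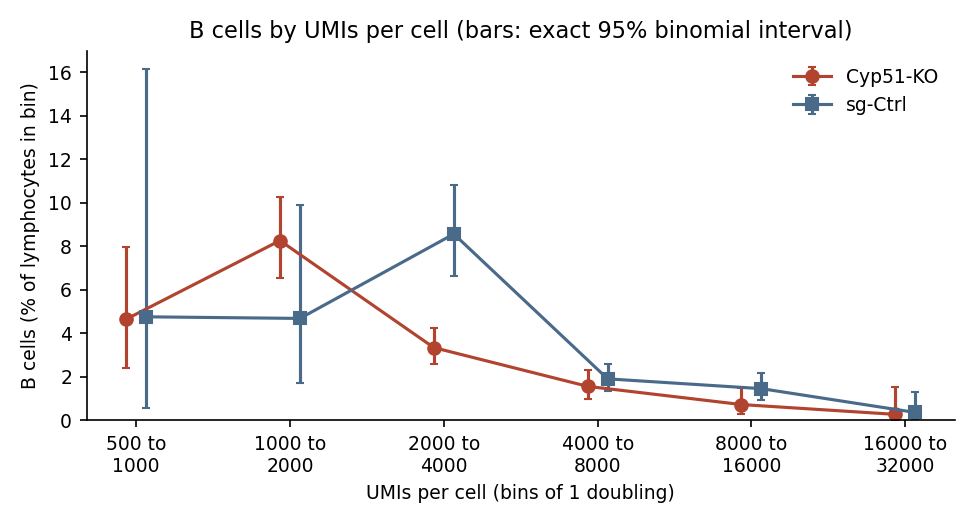
B cells as a percentage of the lymphocytes in each bin of UMIs per cell (bins of 1 doubling from 500 UMIs), in Cyp51-KO (circles) and sg-Ctrl tumors (squares), with exact 95% binomial intervals as bars. The highest point of Cyp51-KO lies at 1000 to 2000 UMIs (8.27%) and that of sg-Ctrl at 2000 to 4000 UMIs (8.57%).

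Fewer genes were detected per B cell in the Cyp51-KO group. The median was 951 genes (889 to 1038) in Cyp51-KO and 1596 genes (1508 to 1714) in the sg-Ctrl group, a log2 ratio of -0.75 (-0.95 to -0.54). The numbers of genes and UMIs went together across the cells of each group, with Spearman's rho of 0.97 in both (181 and 137 cells of a pooled set each, given as a description). Thinning of all cells to 1 depth requires counts per gene, so B cells were compared in bins of UMIs. From 1000 to 2000 UMIs the median was 778.5 genes in Cyp51-KO (74 cells) and 778 in sg-Ctrl B cells (6 cells), and from 4000 to 8000 UMIs 1842.5 (24 cells) and 1823 (40 cells). From 2000 to 4000 UMIs it was 1113 against 1390, a bin in which the Cyp51-KO cells also had fewer UMIs (median 2562 against 3317), and from 8000 to 16000 UMIs 2614 against 3068, on 7 and 23 cells. Averaged over these 4 bins the log2 ratio of genes was -0.13 and that of UMIs within the same bins was -0.16. In bins of 0.5 doublings, of which 6 had at least 5 B cells in each group, these means were -0.083 and -0.065, against -0.75 without bins.

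Without bins, a gap in genes remained in the values that the authors had corrected for depth with SCTransform. This is a regression that brings the counts of all cells to a common depth. After this correction the median B cell had 1238 genes above 0 in Cyp51-KO (1219 to 1286) and 1620 in the sg-Ctrl group (1563 to 1730), a log2 ratio of -0.39. A gap was not particular to B cells. The same ratio was -0.64 in the first functional NK cluster, -0.46 in activated NK cells and -0.11 in the second functional NK cluster. In plasma cells the ratio of medians was 0.50, with overlapping intervals. They had 1454 genes in Cyp51-KO (50 cells, 1174 to 1653) against 1027.5 in sg-Ctrl (16 cells, 923 to 1692). The corrected total per B cell was 5988 and 6436. The correction increased the number of genes in 160 Cyp51-KO B cells (88.4%) and in 90 sg-Ctrl B cells (65.7%). The corrected number of genes still followed the uncorrected UMIs across B cells, with Spearman's rho of 0.69 in Cyp51-KO and 0.95 in the sg-Ctrl group. In bins of uncorrected UMIs, the corrected median was 1180 genes in Cyp51-KO and 1188 in sg-Ctrl B cells (6 cells) from 1000 to 2000 UMIs. From 4000 to 8000 UMIs it was 1843.5 and 1824.5. It was 1288 against 1450 from 2000 to 4000 UMIs and 2614 against 3050 from 8000 to 16000 UMIs.

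B cells had the highest mitochondrial percentage of the lymphocyte clusters in both groups. Transcripts of the mitochondrial genome encode subunits of the respiratory chain, and their share is also used as a sign of cell damage. The median was 1.45% of UMIs in Cyp51-KO B cells (1.34 to 1.50%) and 1.68% in sg-Ctrl B cells (1.60 to 1.76%). Next came Th1-like cells, at 1.23% (1.17 to 1.29%) and 1.46% (1.41 to 1.53%), with intervals apart from those of B cells in both groups. NK cells lay between 0.693% and 0.953% in Cyp51-KO and between 0.927% and 1.26% in the sg-Ctrl group, and plasma cells were at 0.686% and 0.599%. Of all 20 clusters, B cells had the highest median in the Cyp51-KO group, and in the sg-Ctrl group they came after mast cells (1.77%) and the dendritic cluster (1.69%). The interval of B cells overlapped that of the dendritic cluster in both groups, and in the sg-Ctrl group also that of mast cells (1.56 to 1.92%). At most 4.98% of the UMIs of any cell in the table were mitochondrial, as cells with more had been removed.

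**Figure D5:**
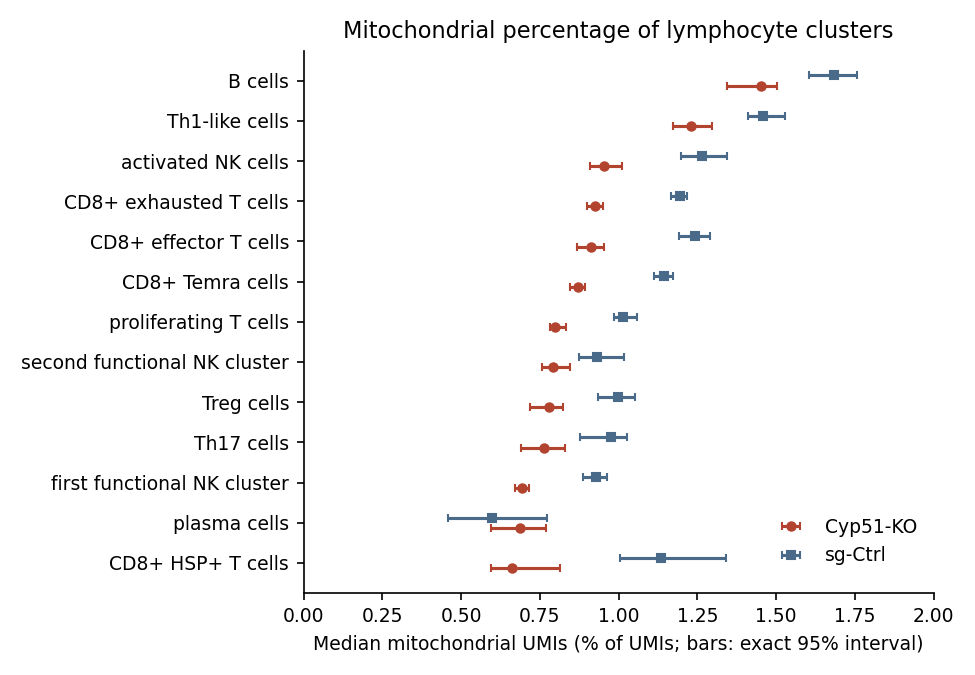
Median mitochondrial percentage of UMIs per cell in the 13 lymphocyte clusters (one per line, ordered by the Cyp51-KO value), in Cyp51-KO (circles) and sg-Ctrl tumors (squares), with exact 95% intervals of the median as bars. B cells lie highest in both groups, at 1.45% and 1.68%, and plasma cells are the only cluster with a higher median in the Cyp51-KO group (0.686% against 0.599%, overlapping intervals).

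Between the groups, the mitochondrial percentage of B cells was lower in the Cyp51-KO group, with a difference of medians of -0.23 percentage points (interval -0.41 to -0.10). The difference was -0.25 at each of the 10th, 25th, 75th and 90th percentiles, but the intervals of the groups were apart only at the 25th percentile and the median and overlapped at the other three. A lower median in the Cyp51-KO group was found in 12 of the 13 lymphocyte clusters, among them the first functional NK cluster (difference -0.23) and Th1-like cells (-0.23). In absolute number, the median B cell had 32 mitochondrial UMIs in Cyp51-KO and 71 in the sg-Ctrl group, a log2 ratio of -1.15 beside -0.93 for all UMIs. Across the cells of a group the mitochondrial percentage did not follow UMIs, with Spearman's rho of -0.051 in Cyp51-KO and 0.036 in sg-Ctrl B cells. Among B cells of similar UMIs, the intervals of the groups were apart in 1 bin. From 4000 to 8000 UMIs the median was 1.28% (1.14 to 1.49%) against 1.72% (1.51 to 1.89%), with intervals apart. From 2000 to 4000 UMIs it was 1.48% (1.29 to 1.57%) against 1.67% (1.53 to 1.75%), from 1000 to 2000 UMIs 1.503% against 2.42% and from 8000 to 16000 UMIs 1.25% against 1.87%, all with overlapping intervals. From 500 to 1000 UMIs it was higher in Cyp51-KO (1.27% on 12 cells) than in the 2 sg-Ctrl B cells there, which had 0.695% and 1.30%. Above 2.5% lay 5 Cyp51-KO B cells (2.76%) and 11 sg-Ctrl B cells (8.03%).

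At 8000 UMIs or more lay 8 Cyp51-KO B cells (4.42%) and 26 sg-Ctrl B cells (19.0%). The sg-Ctrl B cell of 60407 UMIs had 6803 genes, close to the highest number of genes in the table (6998). Whether B cells of many UMIs were droplets of more than 1 cell was not tested.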

How the data were processed

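Single cells of 4 samples were sequenced. By the paper's methods and the submitters' processing notes, alignment to GRCm38 used Cell Ranger 7.0. The authors merged, filtered (genes, UMIs, mitochondrial percentage), normalized (SCTransform) and clustered the cells in R 4.2.0 with Seurat 4.2.0. Small clusters of the WT group were removed by the authors. The table deposited by the authors has a line for each cell, with raw counts of UMIs, the genes detected, the percent of mitochondrial UMIs and totals after SCTransform, which are treated as a score since they are model values. Its clusters and group names were used unchanged, and the prefix of each cell name (51V or NCV) matched the sample titles of 1 group. Mitochondrial UMIs per cell were recovered as percent times UMIs and were whole for every cell (0 cells more than 0.01 away).

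The 13 lymphocyte clusters, 5 myeloid and 2 epithelial clusters follow the paper. The planned permutation test over samples was not run, since cells are tied to a group and not to a sample, and the fallback set with it was used: shares with exact binomial and medians with exact order-statistic 95% intervals. No doublet caller was run, and the sources used here do not say how the authors handled doublets. Alternatives were other denominators, a stricter filter (at least 1000 UMIs, at most 2.5% mitochondrial), removal of each group's top 5% of cells by UMIs, means in place of medians, narrower UMI bins, and, chosen after the data were seen, a higher UMI minimum in sg-Ctrl. No gene was tested. Genes are named as lineage markers or from the authors' list, and the clusters compared with B cells were those of the given rule, NK and plasma cells. The members and lists were chosen with earlier results of these data known. Python 3.11.15 was used with pandas 2.3.3, NumPy 2.4.6, SciPy 1.17.1 and Matplotlib 3.10.9.

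Precision is set by cell numbers, 181 and 137 B cells and 50 and 16 plasma cells, and by UMIs per B cell, 566 to 60407.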

Additional observations from a re-analysis of the deposited data

How the results depend on the processing

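No paired analysis was possible because cells are tied to a group and not to a sample, and for the same reason no sample could be left out. Of 33 alternative values, 32 stayed within the counting interval of the value reported. For genes at like UMIs this interval is the mean over bins of each bound, and for UMIs relative to other clusters it covers the B cell medians alone. The exception was UMIs per B cell relative to NK and plasma cells together (-0.25), which was -0.046 relative to the first functional NK cluster alone and -0.50 relative to the second. The log2 ratio of the B cell share of lymphocytes (0.20) ran from -0.15 to 0.25 and that among NK, B and plasma cells (0.027) from -0.27 to 0.12, so neither kept 1 direction. B cells per plasma cell (-1.24) ran from -1.24 to -1.15, with intervals that reached 0.11 under the stricter filter, 0.032 without the cells with the most UMIs and 0.013 with a minimum of 952 UMIs in the sg-Ctrl group, which was chosen with the data in view and left out 2 B cells. UMIs (-0.99 to -0.92), genes (-0.76 to -0.72) and mitochondrial percentage (-0.27 to -0.22 percentage points) of B cells kept their direction under all their alternatives. The alternative without the top 5% of cells by UMIs removed 0 Cyp51-KO B cells and 1 sg-Ctrl B cell, so it could hardly move these values and says nothing about doublets among B cells. The higher UMI minimum, also counted among the 33, removed only sg-Ctrl B cells of few UMIs. It could therefore not narrow the gap in UMIs, and hardly that in genes, which went with UMIs. Its values for UMIs and genes are no support for those gaps. Differences between tumors, sorts or libraries are not covered by any of these values.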
